A study of Homo sapiens with 192 samples.

Results

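The change in gene expression from 2D to 3D culture was examined for what 4 human colorectal cancer (CRC) cell lines have in common, namely HT29, HCT116, LS513 and LS174T. All 24 of the 24 libraries of the series were used, 12 from cells grown in 3D and 12 from cells grown in 2D, with 3 libraries for each line and growth condition. The 8 groups were thus HT29 2D, HT29 3D, LS513 2D, LS513 3D, HCT116 2D, HCT116 3D, LS174T 2D and LS174T 3D, and the labels name no further treatment or genetic change in any of them. The methods of the study describe spheroids in low-attachment plates, without stating it for these RNA cultures. Microsatellites are stable in HT29 and LS513 but not in HCT116 or LS174T, each group is 1 established line, HCT116 was kept in another medium than the others, and the labels do not say whether the libraries of a group came from separate cultures, so p-values measure only the spread between these libraries, which may be technical. Poly(A) RNA was sequenced, the counts of technical replicates were summed, and library totals ranged from 18723942 to 34277421 counts (median 31024746 in 2D and 30602436 in 3D).

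Cells in a 3D aggregate attach to each other rather than to plastic, and oxygen and nutrients fall towards the interior. When oxygen is low, the prolyl hydroxylases of the EGLN family stop marking hypoxia-inducible factor (HIF) for destruction, and HIF turns on genes of glycolysis, pH control, vessel growth and mitophagy through short DNA sites. Genes of DNA replication and mitosis are read most in cycling cells, through the E2F and MYB-MuvB complexes, and sterol synthesis genes are switched on by SREBP2 when membrane cholesterol is low. These roles are background and no cause of the values below.

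The libraries were checked against cell type markers. All 9 markers of colonic epithelium were detected, and their summed level was 3477 to 18358 CPM (counts scaled to library size) in 2D and 4482 to 17256 CPM in 3D, although KRT20, VIL1 and LGALS4 were under 3 CPM in HCT116. The 14 markers of fibroblasts, endothelium and leukocytes summed to 2.67 to 29.1 CPM in 2D (median 17.7) and 5.87 to 93.2 CPM in 3D (median 40.6). COL1A2 and CD3E were at 0 in every library and PTPRC had 4 counts in all. CD68, a lysosomal membrane protein that counts as a macrophage marker, read 2.08 to 91.8 CPM, was higher in each line (log2 fold changes of 1.17, 2.01, 1.92 and 0.92, in the order HT29, LS513, HCT116 and LS174T used throughout) and, with COL1A1 and CD14, held nearly all of the counts of these markers. Their part in the results was not tested. HCT116 2D replicate 3 and LS174T 3D replicate 2 stood apart from the other libraries of their groups, as described with gene length below, and counts without them are given there.

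Of 58243 genes in the files, 19387 had enough counts to be tested. With the cell line as a block, 5710 genes (29.5%) were higher in 3D and 4689 (24.2%) were lower at an adjusted p under 0.05 (edgeR quasi-likelihood test). Each fold change is the log2 ratio of the 3D level to the 2D level, and their median over all tested genes was 0.04. Within the lines, 4094 genes (21.1%) were higher and 3793 (19.6%) lower in HT29, 2651 (13.7%) higher and 1920 (9.9%) lower in LS513, 3253 (16.8%) higher and 2384 (12.3%) lower in HCT116, and 2531 (13.1%) higher and 1774 (9.15%) lower in LS174T. In each of the 4 lines, 608 genes (3.14%) were higher in 3D and 477 (2.46%) were lower. Of the 1121 genes that passed the test in each line, 36 moved in different directions between lines. When each line counted as 1 replicate, with 1 difference per line (limma with trend and robust settings), 0 genes passed in either direction and the smallest adjusted p was 0.0584, while 3417 genes were higher and 3769 lower at an unadjusted p under 0.05. Without the robust setting 641 were higher and 1646 lower, and without both settings 1446 and 1399. In bulk RNA, fewer cells of a kind and less RNA per cell cannot be told apart.

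The shared increases had a larger median than the shared decreases. The median fold change with line as a block was 0.82 over the 608 higher genes (range 0.25 to 5.07) and -0.59 over the 477 lower genes (range -2.17 to -0.22). At least 1 on the log2 scale was reached in each line by 87 of the higher genes and by 4 of the lower genes. The higher genes had medians of 0.84 and 0.75 in HT29 and LS513 and of 0.85 and 0.77 in HCT116 and LS174T, and the lower genes medians of -0.68, -0.53, -0.59 and -0.51. HT29 held the largest decrease for 284 of the 477 lower genes. An interaction test of growth and line called 3314 of all tested genes (17.1%), 151 of the 608 higher genes (24.8%) and 24 of the 477 lower genes (5.03%) at an adjusted p under 0.05. Every 3D library lay beyond every 2D library within each line for 547 of the higher and 440 of the lower genes. The genes were chosen by the test in each line, which favors such a separation, so these sizes and counts are a description. The share of such genes over all tested genes is not given here.

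Listed HIF targets were among the leading increases common to the 4 lines. By the rule for named genes, which ranks by the smallest change over the 4 lines, the 15 leading higher genes were ANGPTL4, NDRG1, ALDOC, CLIC3, ANKRD37, LINC03040, BNIP3L, CA9, ISG20, FXYD3, EGLN3, GPR146, GDF15, C4orf3 and PDK1. The rule admits only genes whose growth conditions do not overlap within any line. For the leading genes, higher or lower, the lack of overlap within a line was therefore set by the choice. ANGPTL4, NDRG1, ANKRD37, BNIP3L, CA9 and EGLN3 were on the list of HIF targets, and ALDOC and PDK1 on that of glycolysis. NDRG1 (chr8:133237171-133302022 on GRCh38, minus strand), a stress protein known as a hypoxia marker, was expressed in every line. NDRG1 read 13.2, 15.3 and 15.4 CPM in 2D and 183, 345 and 357 CPM in 3D in HT29, and 39.3, 41.6 and 41.7 CPM in 2D and 299.8, 400.5 and 500.4 CPM in 3D in LS513. In HCT116, NDRG1 read 38.0, 40.5 and 53.4 CPM in 2D and 619, 999 and 1085 CPM in 3D, and in LS174T 31.3, 33.0 and 37.6 CPM in 2D and 564, 652 and 695 CPM in 3D. The 3D libraries were between 183 and 1085 CPM and the 2D libraries between 13.2 and 53.4 CPM, with no overlap across the 4 lines, and the fold change with line as a block was 4.05 (standard error 0.16, adjusted p = 8.8e-15).

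ANGPTL4 (chr19:8363289-8374373, plus strand), a secreted inhibitor of lipoprotein lipase, was near the detection limit in 2D. ANGPTL4 read 0, 0.0343 and 0.0548 CPM in 2D and 0.484, 0.979 and 2.02 CPM in 3D in HT29, and 0.127, 0.151 and 0.161 CPM in 2D and 4.78, 7.32 and 10.4 CPM in 3D in LS513. In HCT116, ANGPTL4 read 2.02, 2.10 and 4.40 CPM in 2D and 44.1, 89.3 and 119 CPM in 3D, and in LS174T 0.0284, 0.0592 and 0.0897 CPM in 2D and 1.75, 1.84 and 2.48 CPM in 3D. Growth conditions did not overlap in any line, but a library's floor of 3 counts was between 0.0875 and 0.160 CPM, so only the HCT116 fold change (4.89, standard error 0.39, adjusted p = 5.3e-09) was measured against 2D libraries well above it. The fitted change of the other lines depends on the prior count. ALDOC (chr17:28573115-28577264, minus strand), a fructose-bisphosphate aldolase of glycolysis, was expressed in both conditions. ALDOC read 10.53, 12.48 and 13.3 CPM in 2D and 54.5, 82.3 and 124 CPM in 3D in HT29, and 17.8, 22.5 and 31.5 CPM in 2D and 176, 243 and 282 CPM in 3D in LS513. In HCT116, ALDOC read 28.8, 30.5 and 44.4 CPM in 2D and 192, 284 and 292 CPM in 3D, and in LS174T 23.4, 25.8 and 28.5 CPM in 2D and 264, 270.2 and 296 CPM in 3D. It changed by 3.12 (standard error 0.14, adjusted p = 7.5e-14), and its 3D libraries lay above the 2D libraries of all lines.

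CA9 (chr9:35673856-35681159, plus strand), the membrane carbonic anhydrase that exports acid equivalents, rose in each line from very different starting levels. CA9 read 39.8, 40.6 and 44.3 CPM in 2D and 117, 159 and 189 CPM in 3D in HT29, and 2.34, 3.44 and 3.57 CPM in 2D and 28.1, 53.3 and 68.4 CPM in 3D in LS513. In HCT116, CA9 read 0.316, 0.362 and 1.09 CPM in 2D and 5.58, 7.55 and 8.28 CPM in 3D, and in LS174T 24.3, 29.2 and 56.2 CPM in 2D and 351, 355 and 544 CPM in 3D. The 2D libraries of HT29 and LS174T were higher than the 3D libraries of HCT116, and the changes in the 4 lines were 1.90, 4.00, 3.62 and 3.51 in the order HT29, LS513, HCT116 and LS174T. BNIP3L, a mitophagy receptor, read 9.70 to 33.5 CPM (median 18.5) in the 12 2D libraries and 58.0 to 133 CPM (median 84.6) in the 12 3D libraries, and every 3D library was above every 2D library whatever the line. EGLN3, 1 of the oxygen-sensing prolyl hydroxylases, read 6.64 to 23.0 CPM (median 13.6) in the 12 2D libraries and 12.3 to 145 CPM (median 45.02) in the 12 3D libraries, and these ranges overlap between lines but not within a line. PDK1, a pyruvate dehydrogenase kinase, changed by 1.63 (standard error 0.08, adjusted p = 1.5e-13). ANKRD37, a small ankyrin-repeat protein, changed by 2.95, 2.45, 4.47 and 3.95 in the 4 lines in the same order.

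C4orf3 (chr4:119296419-119304445, minus strand) had the most even increase of the 15 leading higher genes. This gene encodes a small membrane protein. C4orf3 read 27.6, 29.8 and 36.9 CPM in 2D and 77.0, 83.3 and 94.0 CPM in 3D in HT29, and 36.1, 40.1 and 41.7 CPM in 2D and 108, 120.4 and 124 CPM in 3D in LS513. In HCT116, C4orf3 read 23.9, 26.7 and 28.0 CPM in 2D and 68.4, 77.5 and 79.4 CPM in 3D, and in LS174T 53.4, 53.8 and 56.2 CPM in 2D and 145, 145 and 161 CPM in 3D. Its changes in the 4 lines were 1.44, 1.58, 1.52 and 1.47, with an interaction adjusted p of 0.89. GDF15, a secreted stress cytokine, read 10.8 to 218 CPM (median 56.9) in the 12 2D libraries and 60.9 to 598 CPM (median 183) in the 12 3D libraries, and again the ranges overlap between lines but not within a line. It changed by 1.86 (standard error 0.14, adjusted p = 5.3e-10). ISG20, an exonuclease induced by interferon, changed by 2.22 (standard error 0.14, adjusted p = 1.0e-11) and FXYD3, a regulator of the sodium pump, by 2.01 (standard error 0.13, adjusted p = 5.1e-11). CLIC3, an intracellular chloride channel protein, had 0.242 to 3.36 CPM (median 0.671) in the 12 2D libraries and 3.31 to 21.2 CPM (median 6.47) in the 12 3D libraries. GPR146, a G protein-coupled receptor, changed by 2.01 and LINC03040, which GENCODE 29 types as protein-coding, by 2.52.

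**Figure D1:**
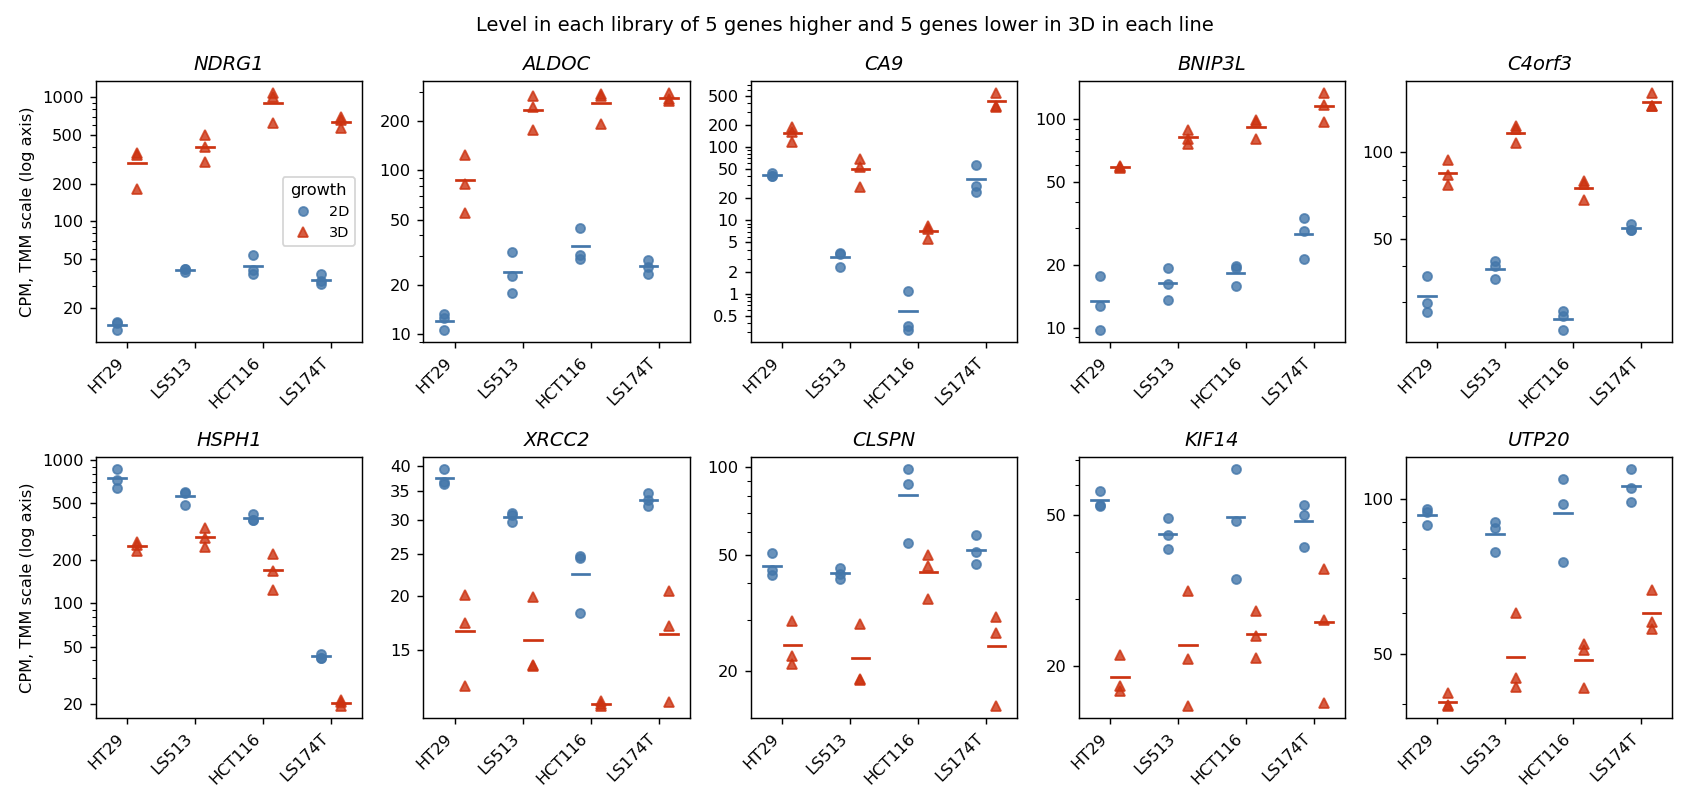
Level of 5 genes higher and 5 genes lower in 3D in every library, in CPM on a log axis, by cell line. Circles are 2D and triangles 3D libraries, 3 per group, and horizontal lines are group means. No 3D library overlapped a 2D library of its own line in these 10 panels, which the rule for leading genes required.

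Among all tested genes, the smallest p belonged to MIR210HG, the host transcript of a microRNA induced by HIF. It is not protein-coding, falls outside the naming rule, and was chosen after its values were seen. Its mean rose from 0.382 to 9.36 CPM in HT29, 1.34 to 20.5 CPM in LS513, 0.857 to 8.79 CPM in HCT116 and 1.40 to 21.3 CPM in LS174T, a change of 3.89 (standard error 0.13, adjusted p = 9.3e-17) with line as a block.

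The decreases common to the 4 lines were led by RSRP1, HSPH1, XRCC2, ZFC3H1, GVQW3, ZNF594, NFAT5, FANCB, CLSPN, KIF14, MYBL1, POLQ, UTP20, ASPM and TASOR2, by the same ranking. XRCC2, FANCB and POLQ were on the list of homologous recombination and Fanconi genes, CLSPN on that of DNA replication, ASPM on mitosis, HSPH1 on heat shock proteins and UTP20 on ribosome biogenesis. HSPH1 (chr13:31134974-31162388, minus strand), a large heat shock protein that recharges HSP70, is among the abundant ones. HSPH1 read 644, 726 and 873 CPM in 2D and 231, 254 and 267 CPM in 3D in HT29, and 488, 591 and 601 CPM in 2D and 248, 284 and 337 CPM in 3D in LS513. In HCT116, HSPH1 read 380.5, 383 and 418 CPM in 2D and 124, 168 and 220.4 CPM in 3D, and in LS174T 41.5, 41.9 and 44.6 CPM in 2D and 19.2, 20.4 and 21.3 CPM in 3D. It changed by -1.20 (standard error 0.09, adjusted p = 1.9e-10), and LS174T held far less of it than the other lines in both conditions. XRCC2, a gene of homologous recombination, had similar decreases in the 4 lines. XRCC2 read 36.3, 36.6 and 39.4 CPM in 2D and 12.4, 17.3 and 20.1 CPM in 3D in HT29, and 29.7, 30.8 and 31.1 CPM in 2D and 13.7, 13.8 and 19.9 CPM in 3D in LS513. In HCT116, XRCC2 read 18.2, 24.4 and 24.7 CPM in 2D and 11.1, 11.2 and 11.4 CPM in 3D, and in LS174T 32.2, 33.3 and 34.7 CPM in 2D and 11.4, 16.98 and 20.5 CPM in 3D. The 4 changes of XRCC2 were -1.18, -0.95, -0.996 and -1.03, with an interaction adjusted p of 0.91.

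CLSPN (chr1:35720218-35769967, minus strand) encodes claspin, an adaptor of the replication checkpoint. CLSPN read 42.7, 44.4 and 50.7 CPM in 2D and 21.1, 22.6 and 29.7 CPM in 3D in HT29, and 41.5, 43.0 and 45.2 CPM in 2D and 18.7, 18.7 and 28.9 CPM in 3D in LS513. In HCT116, CLSPN read 55.1, 87.8 and 99.1 CPM in 2D and 35.3, 45.7 and 50.2 CPM in 3D, and in LS174T 46.7, 51.1 and 58.5 CPM in 2D and 15.1, 27.0 and 30.6 CPM in 3D. The values did not overlap within a line, although the lowest 2D library of HCT116 came close to the highest 3D library there. The 4 changes of CLSPN were -0.91, -0.97, -0.88 and -1.10. KIF14, a kinesin of cytokinesis, fell as well. KIF14 read 52.9, 53.4 and 58.0 CPM in 2D and 17.2, 17.7 and 21.3 CPM in 3D in HT29, and 40.7, 44.5 and 49.2 CPM in 2D and 15.7, 20.9 and 31.6 CPM in 3D in LS513. In HCT116, KIF14 read 34.0, 48.5 and 66.5 CPM in 2D and 20.9, 23.9 and 27.9 CPM in 3D, and in LS174T 41.2, 50.2 and 53.4 CPM in 2D and 16.0, 26.4 and 36.0 CPM in 3D. Its change was -1.11 (standard error 0.13, adjusted p = 3.9e-07), and the 3D libraries of LS174T spread from 16.0 to 36.0 CPM. UTP20, a scaffold of small ribosomal subunit processing, read 75.2 to 114 CPM (median 94.8) in the 12 2D libraries and 39.5 to 66.6 CPM (median 47.8) in the 12 3D libraries, without overlap between the conditions across all lines, and changed by -0.94 (standard error 0.07, adjusted p = 2.3e-10).

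Of the other leading lower genes, ASPM (spindle pole organization) changed by -1.11, POLQ (end joining by polymerase theta) by -0.96, FANCB (Fanconi core complex) by -1.19 and MYBL1 (a MYB transcription factor) by -1.40. NFAT5, the transcription factor of the osmotic stress response, changed by -1.07, but its 2D libraries in HCT116 read 37.2, 89.1 and 94.5 CPM and its 3D libraries 34.4, 35.4 and 36.6 CPM, so 1 2D library lay next to the 3D range. RSRP1, an arginine and serine rich nuclear protein, changed by -1.20, and 1 HT29 library in 3D stood apart from the others (9.54, 10.8 and 28.3 CPM in 3D against 28.7, 34.1 and 36.9 CPM in 2D). ZFC3H1 and TASOR2, nuclear proteins of RNA decay and chromatin silencing, changed by -1.08 and -0.94. GVQW3 and the zinc finger gene ZNF594 changed by -1.34 and -1.05.

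**Figure D2:**
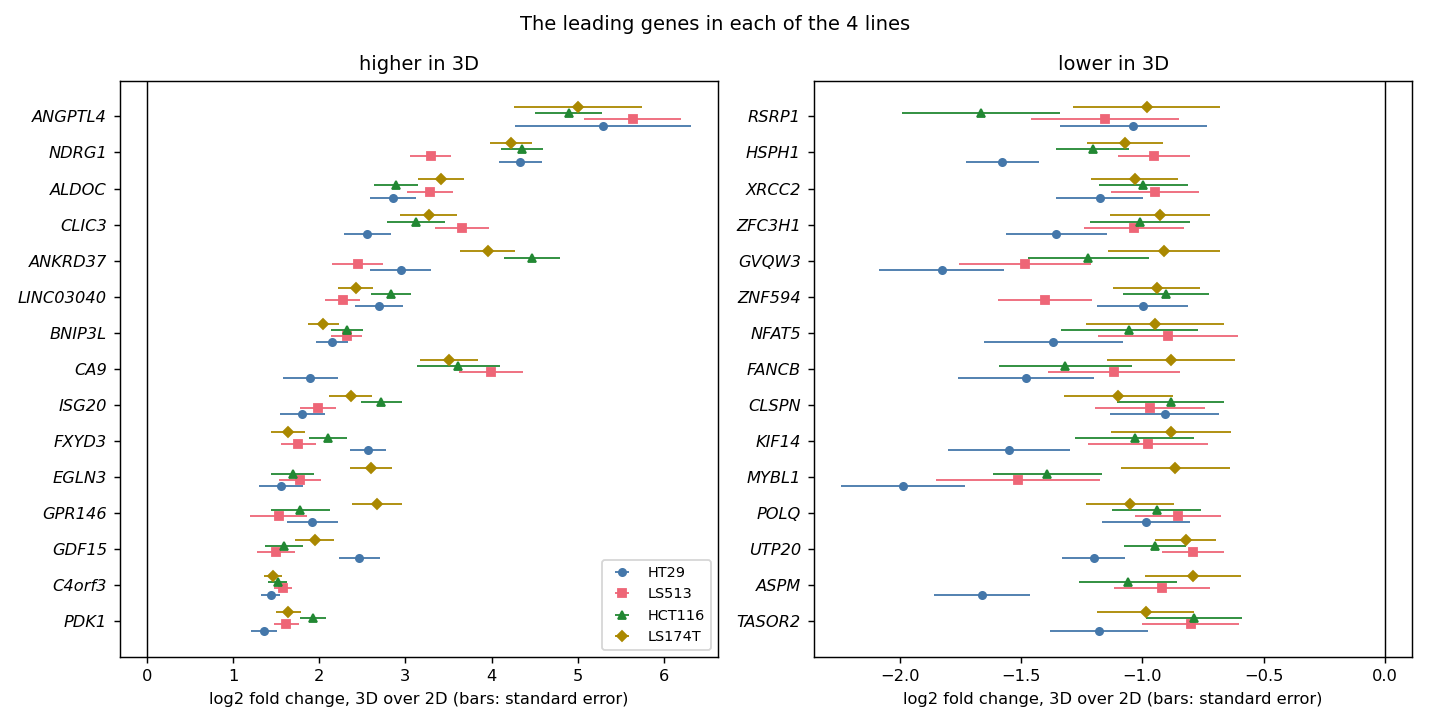
Log2 fold change of 3D over 2D in each line for the 15 leading higher and the 15 leading lower genes, with the standard error as a bar. All 30 genes lie on 1 side of 0 in the 4 lines, as the rule for leading genes required. NDRG1 lies between 3.29 and 4.36 and HSPH1 between -1.58 and -0.95. The ANGPTL4 values of HT29, LS513 and LS174T depend on the prior count, since its 2D levels there were near the floor.

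Promoter sequence (GRCh38.p14, RefSeq, 250 bases before to 50 after the start) was matched by symbol for 9145 of the 19387 tested genes, among them 303 of the 608 higher and 306 of the 477 lower genes. The letters searched, on both strands, were ACGTG and its variant GCGTG (the HIF letters), CCAAT (the CCAAT box), TTTGAA and its variant TTCGAA (the cell cycle homology region) and TTCCCGC (an E2F site). CACGTG counts once per strand. The 6 promoters shown were chosen among the leading genes because they hold letters of known regulators of that direction. Of the leading genes with a window, 5 of 10 higher and 7 of 12 lower genes hold the HIF letters, and those of CLIC3, LINC03040, FXYD3, EGLN3 and GDF15 hold none. The capitals mark only the letters named with each set. KIF14 and CLSPN also hold the HIF letters, and ANKRD37 and CA9 also hold CCAAT. In the 3 higher genes, the capitals mark the HIF letters or their reverse complement.
ALDOC: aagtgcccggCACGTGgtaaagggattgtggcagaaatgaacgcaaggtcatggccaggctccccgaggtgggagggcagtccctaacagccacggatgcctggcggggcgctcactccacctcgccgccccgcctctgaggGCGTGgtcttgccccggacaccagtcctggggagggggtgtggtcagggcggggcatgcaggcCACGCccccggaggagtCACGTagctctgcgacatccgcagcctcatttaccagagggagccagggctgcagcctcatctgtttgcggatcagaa
ANKRD37: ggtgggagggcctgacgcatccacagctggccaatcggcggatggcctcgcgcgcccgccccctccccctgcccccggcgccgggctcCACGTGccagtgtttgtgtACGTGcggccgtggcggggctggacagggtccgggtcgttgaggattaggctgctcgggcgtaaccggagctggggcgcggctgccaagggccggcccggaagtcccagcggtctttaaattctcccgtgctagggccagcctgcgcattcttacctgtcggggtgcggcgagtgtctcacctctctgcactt
CA9: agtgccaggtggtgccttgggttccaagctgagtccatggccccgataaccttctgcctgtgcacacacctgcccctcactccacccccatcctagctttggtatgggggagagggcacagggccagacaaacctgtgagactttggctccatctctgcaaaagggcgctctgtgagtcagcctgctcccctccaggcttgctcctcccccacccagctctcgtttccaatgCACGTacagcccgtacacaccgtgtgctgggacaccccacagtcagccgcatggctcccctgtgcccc
These windows lie at chr17:28576846-28577145, minus strand (ALDOC), chr4:185396591-185396890, plus strand (ANKRD37) and chr9:35673678-35673977, plus strand (CA9).

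In the 3 lower genes that follow, the capitals mark the CCAAT box, the cell cycle homology region, the E2F letters, or their reverse complements.
ASPM: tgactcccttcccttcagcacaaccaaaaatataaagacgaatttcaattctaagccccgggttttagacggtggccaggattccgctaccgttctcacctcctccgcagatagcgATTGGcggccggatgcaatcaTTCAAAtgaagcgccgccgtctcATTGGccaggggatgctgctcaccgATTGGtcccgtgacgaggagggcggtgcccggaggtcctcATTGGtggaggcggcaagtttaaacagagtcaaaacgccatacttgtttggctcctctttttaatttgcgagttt
KIF14: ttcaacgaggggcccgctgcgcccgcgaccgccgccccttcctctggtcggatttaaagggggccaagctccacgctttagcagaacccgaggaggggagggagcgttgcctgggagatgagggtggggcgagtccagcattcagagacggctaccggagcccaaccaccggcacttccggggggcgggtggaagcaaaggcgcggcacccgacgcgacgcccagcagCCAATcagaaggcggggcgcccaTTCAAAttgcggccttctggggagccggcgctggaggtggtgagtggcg
CLSPN: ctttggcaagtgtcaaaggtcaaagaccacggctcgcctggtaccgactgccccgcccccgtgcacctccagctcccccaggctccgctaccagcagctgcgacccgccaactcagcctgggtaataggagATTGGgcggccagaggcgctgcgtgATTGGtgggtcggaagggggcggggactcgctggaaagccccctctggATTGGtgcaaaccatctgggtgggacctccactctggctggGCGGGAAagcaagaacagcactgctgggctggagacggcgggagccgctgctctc
These windows lie at chr1:197146620-197146919, minus strand (ASPM), chr1:200620702-200621001, minus strand (KIF14) and chr1:35769929-35770228, minus strand (CLSPN). The HIF letters were in 61.7% of the promoters of higher genes and in 61.7% of all promoters and in 69.9% of those of lower genes, and were present at least 2 times in 30.7%, 32.9% and 42.2%. Among the listed HIF targets with a promoter it was 22 of 25, and the window of EGLN3 held none. The cell cycle homology region was in 23.2% of the promoters of lower genes, 7.59% of those of higher genes and 11.3% of all, TTCCCGC in 20.6%, 8.91% and 10.1%, and CCAAT in 49.3%, 38.9% and 37.3%. Of the promoters of the mitosis list, 24 of 30 held the cell cycle homology region and 24 held CCAAT, and of those of the DNA replication list 15 of 28 held TTCCCGC. A match is a description of letters and not a site, and no match says only that these letters are not in the window.

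Lists of genes were read by how many members passed the test, against 29.5% higher and 24.2% lower over all tested genes. The lists were chosen with earlier results of these data known, so these counts are a description. Of 34 HIF targets, 33 were higher with line as a block and none was lower, 17 were higher in each line, and the median change was 1.04. The 17 covered acid export (CA9), the secreted factors ADM and ANGPTL4, the mitochondrial proteins BNIP3L and FAM162A, the histone demethylases KDM3A and KDM4B, the collagen hydroxylases P4HA1, P4HA2 and PLOD2, the MTOR inhibitor DDIT4, the repressors MXI1 and BHLHE40, and NDRG1, EGLN3, ANKRD37 and PPFIA4. LDHA, ENO1 and P4HA1, named below, fall outside the naming rule and were chosen after their values were seen. P4HA1, which prepares collagen for folding, changed by 1.13, 1.63, 2.15 and 1.53 in HT29, LS513, HCT116 and LS174T. BNIP3, a relative of BNIP3L, was at or under the floor in HT29 and LS513 in both conditions, and rose in HCT116 from 23.4 to 59.6 CPM and in LS174T from 25.5 to 135 CPM. As a mean over the list, relative to the 2D mean of the same line, the 3D libraries were 0.82 to 1.16 in HT29, 1.43 to 1.74 in LS513, 1.18 to 1.64 in HCT116 and 1.43 to 1.66 in LS174T on the log2 scale, and HT29 had the lowest values.

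Most genes of glucose uptake and glycolysis were higher too, with 21 of 22 genes higher and 10 higher in each line (median 0.59). These 10 were PFKL, PFKFB4, ALDOC, TPI1, PGK1, PGAM1, ENO2, LDHA, the lactate exporter SLC16A3 and PDK1. LDHA, which turns pyruvate into lactate, rose from 1116 to 1417 CPM in HT29, 875 to 1957 CPM in LS513, 1139 to 1817 CPM in HCT116 and 853 to 2238 CPM in LS174T, and the 4 changes (0.34, 1.16, 0.67 and 1.39) differed between lines (interaction adjusted p = 3.5e-06). PFKFB4, which makes the activator of phosphofructokinase, changed by 1.55 (standard error 0.10, adjusted p = 5.7e-11) with the block. PFKM, the muscle type of phosphofructokinase, was the exception and changed by -0.13 (standard error 0.05, adjusted p = 0.03). ENO1, the main enolase, was among the 36 genes that passed in each line with mixed directions, with changes of -0.45, 0.41, 0.30 and 0.72.

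Every listed gene of cholesterol synthesis was higher with line as a block (25 of 25), 13 of them in each line (median 0.75). They included ACAT2 and HMGCS1 at the entry, then MVD, IDI1, FDPS, FDFT1 and LSS, the later TM7SF2, HSD17B7 and EBP, and the regulators INSIG1 and SREBF2. LSS, which closes the sterol ring, rose from 127 to 182 CPM in HT29, 157 to 341 CPM in LS513, 65.6 to 113 CPM in HCT116 and 182 to 311 CPM in LS174T, a change of 0.80 (standard error 0.07, adjusted p = 7.9e-09). TM7SF2, a sterol reductase, changed by 1.23, 1.39, 1.35 and 0.67 and ACAT2, which condenses acetyl-CoA, by 0.66, 1.41, 0.66 and 0.82 in the 4 lines. The 3D libraries of LS513 had the highest list means (1.15 to 1.40) and those of HT29 the lowest (0.22 to 0.44). Of 13 genes of fatty acid synthesis and desaturation, 5 were higher and 1 lower, and SCD, ACSS2 and SREBF1 were higher in each line. SCD, the stearoyl-CoA desaturase, was abundant in every line. SCD read 1745, 1933 and 2012 CPM in 2D and 2729, 3474 and 3722 CPM in 3D in HT29, and 742, 1033 and 1226 CPM in 2D and 2938, 2953 and 3631 CPM in 3D in LS513. In HCT116, SCD read 1311, 1738 and 1939 CPM in 2D and 2775, 3116 and 3417 CPM in 3D, and in LS174T 881, 1304 and 1352 CPM in 2D and 2147, 3595 and 3926 CPM in 3D. No 2D library reached the level of any 3D library. ACSS2, which makes acetyl-CoA from acetate, changed by 1.39, 2.83, 0.95 and 1.35, with an interaction adjusted p of 9.4e-06.

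Most FOXO and quiescence-associated genes were higher, and so was a smaller part of the p53 targets. Of 24 FOXO and quiescence-associated genes, 18 were higher and none lower (median 0.98), and CCNG2, PIK3IP1, YPEL3, YPEL5, BTG1, FBXO32, TSC22D3 and PNRC1 were higher in each line. YPEL5, a subunit of a ubiquitin ligase, changed by 1.94, 1.20, 2.14 and 1.003, PNRC1, a nuclear receptor coactivator, by 1.23, 1.36, 2.15 and 1.01 and FBXO32, a ubiquitin ligase adaptor and FOXO target, by 1.80, 1.11, 1.71 and 0.81. Among 26 p53 targets, 11 were higher and 3 lower (median 0.26). As a mean over the p53 list, the 3D libraries lay above the 2D libraries without overlap in each line. Their middle values were 0.52, 0.26, 0.19 and 0.17 in HT29, LS513, HCT116 and LS174T. CDKN1A, which encodes the CDK inhibitor p21, was higher in each line with changes of 2.15, 0.96, 0.76 and 0.88, and the highest HT29 library in 3D stood above the others (14.0, 18.3 and 44.8 CPM). BBC3, a death activator, GDF15 and the oxidoreductase TP53I3 were also higher in each line, while MDM2, the ligase that degrades p53, changed by -0.40 (standard error 0.09, adjusted p = 0.00063) and TIGAR by -0.26 with the block. MYC, which passed with the block at 0.24 (standard error 0.08, adjusted p = 0.016), passed within LS174T alone, with fold changes of 0.05, 0.16, 0.08 and 0.68 in the 4 lines.

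No member of the cell cycle lists was higher with line as a block. Of 40 DNA replication genes, 35 were lower and none higher (median -0.37), and 16 were lower in each line, among them MCM4, MCM10, ORC1, ORC6, CDC7, POLA1, POLE, RFC3 and RFC5, RRM1, TYMS and UHRF1. MCM10, an origin firing factor, changed by -0.72 (standard error 0.06, adjusted p = 7.4e-10), RRM1, the large subunit of ribonucleotide reductase, by -0.53 (standard error 0.04, adjusted p = 1.1e-09), and TYMS, the target of fluoropyrimidines, by -0.52 (standard error 0.04, adjusted p = 2.5e-09). TYMS read 185, 188 and 196 CPM in 2D and 124, 125 and 129 CPM in 3D in HT29, and 143, 155 and 156 CPM in 2D and 97.0, 99.9 and 112 CPM in 3D in LS513. In HCT116, TYMS read 369.6, 385 and 402 CPM in 2D and 241, 243 and 276 CPM in 3D, and in LS174T 246, 246 and 283 CPM in 2D and 199, 199 and 212 CPM in 3D. The decrease in TYMS was smaller than 1 on the log2 scale in each line, yet the conditions did not overlap within a line. Of 40 mitosis genes, 39 were lower and none higher (median -0.51), and 15 were lower in each line, among them BUB1, BUB1B, KIF11, KIF23, CENPE, CENPF, TOP2A, TPX2 and the condensin genes NCAPD2, NCAPG, NCAPH and SMC4. CENPF, a kinetochore protein, read 175 to 322 CPM (median 253) in the 12 2D libraries and 115 to 193 CPM (median 151) in the 12 3D libraries and changed by -0.76 (standard error 0.07, adjusted p = 8.5e-09). MKI67, the proliferation marker Ki-67, changed by -0.77 (standard error 0.11, adjusted p = 3.6e-06) with the block and passed within HT29 and LS174T, with adjusted p-values of 0.056 in LS513 and 0.064 in HCT116.

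Homologous recombination and Fanconi genes had the largest share of members lower in each line among the lists read here. Of 24, 23 were lower and none higher (median -0.65), and 15 were lower in each line, namely BRCA1, BRCA2, BARD1, RAD54L, XRCC2, BLM, EXO1, DNA2, POLQ, BRIP1 and the Fanconi genes FANCA, FANCB, FANCD2, FANCI and FANCM. FANCD2 is ubiquitylated at crosslinked DNA. FANCD2 read 48.2, 48.3 and 51.2 CPM in 2D and 23.3, 24.3 and 24.5 CPM in 3D in HT29, and 119, 119.9 and 126 CPM in 2D and 67.0, 74.7 and 88.0 CPM in 3D in LS513. In HCT116, FANCD2 read 91.2, 112 and 116 CPM in 2D and 58.7, 63.0 and 63.3 CPM in 3D, and in LS174T 81.6, 85.6 and 92.7 CPM in 2D and 48.8, 49.5 and 54.2 CPM in 3D. It changed by -0.81 (standard error 0.05, adjusted p = 5.2e-11). FANCI, its partner, changed by -0.46, -0.65, -0.68 and -0.55 and BLM, the helicase of Bloom syndrome, by -0.83, -0.68, -0.91 and -0.60. The conditions of FANCD2, FANCI and BLM did not overlap within any line.

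Most genes of protein folding by heat shock proteins and of ribosome assembly were lower too. Of 17 heat shock genes, 16 were lower and 1 higher (median -0.47), and HSPA4, HSPH1, HSPA4L, STIP1 and CHORDC1 were lower in each line. HSPA4, an HSP70 exchange factor, changed by -0.51 (standard error 0.05, adjusted p = 4.9e-09) and HSPB1, a small heat shock protein and the exception, by 0.34 (standard error 0.07, adjusted p = 0.00017). Of 36 ribosome biogenesis genes, 25 were lower and 1 higher (median -0.23), and NOP2, UTP20, UTP15, POLR1A, NOLC1, NOL6 and HEATR1 were lower in each line. NOP10, a small protein of the pseudouridylation complex, was the exception at 0.35 (standard error 0.07, adjusted p = 8.9e-05). Of 83 cytosolic ribosomal protein genes, a list chosen after its values were seen, 78 were higher and 1 lower (median 0.61), and 38 were higher in each line, or 62 without HCT116 2D replicate 3 and LS174T 3D replicate 2. RPLP0 and RPL3 were chosen as examples after their values were seen. RPLP0, a stalk protein of the large subunit, rose from 1454 to 2753 CPM in HT29, 1078 to 1629 CPM in LS513, 1797 to 3011 CPM in HCT116 and 1434 to 2671 CPM in LS174T. RPL3, at the peptidyl transferase center, changed by 0.77, 0.60, 0.76 and 0.74. Ribosomal proteins made up a median of 5.73% of the counts in 2D and 8.69% in 3D, and 22 of the 33 pseudogenes among the 608 higher genes were ribosomal protein pseudogenes, whose reads are uncertain because they can be shared with the parent genes. Of the 608 higher genes, 15 were antisense or overlapping transcripts, whose strand setting in counting is not given in the sources used here.

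**Figure D3:**
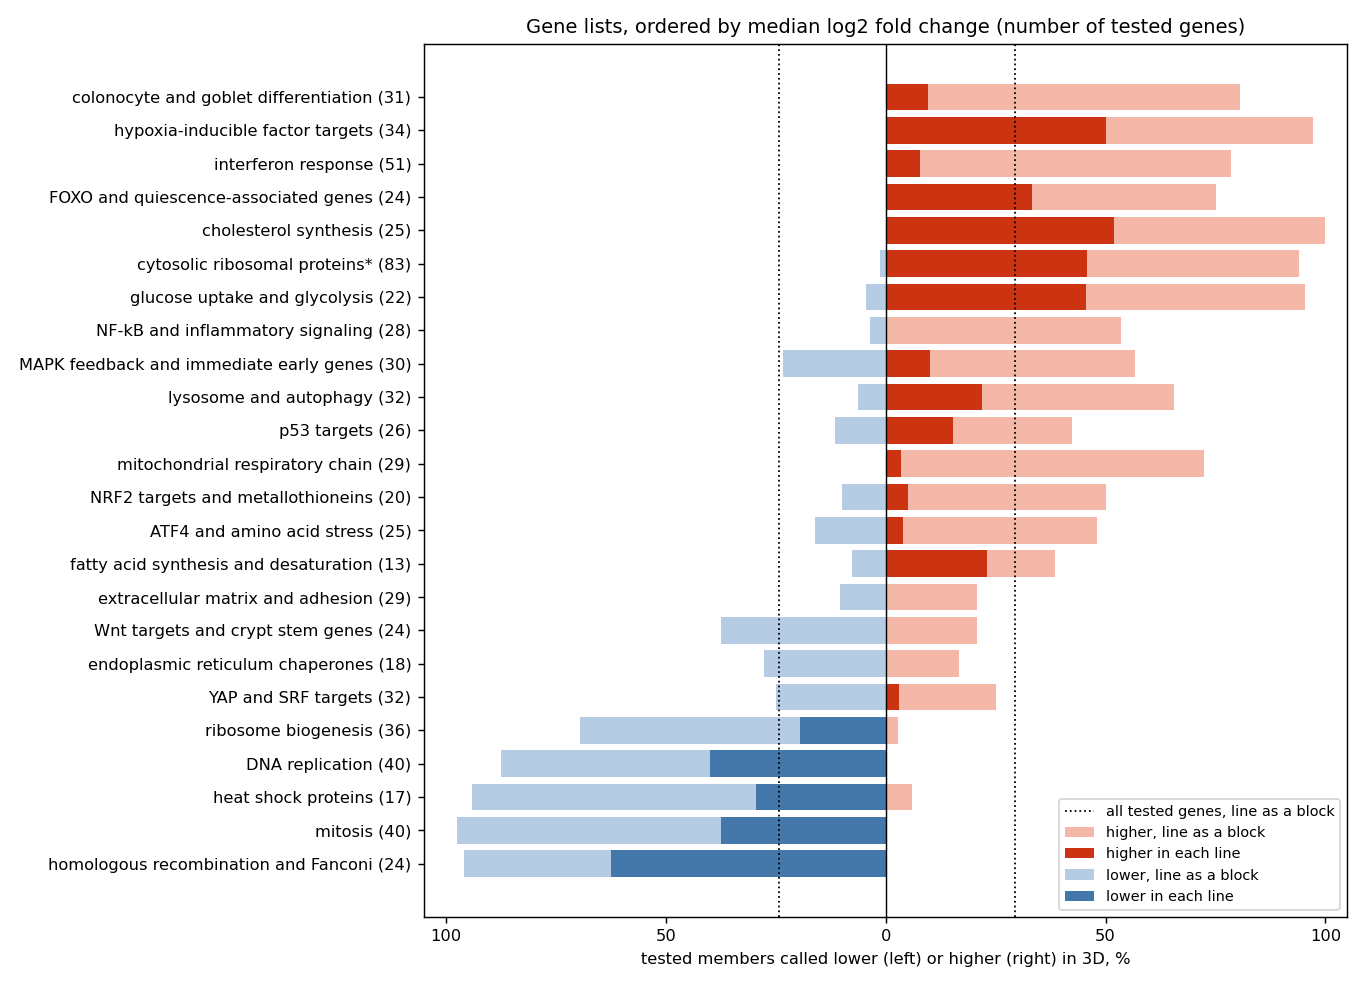
Share of the tested members of 24 gene lists that were higher (right) or lower (left) in 3D, in percent, with line as a block (pale) and in each of the 4 lines (dark). Dotted lines mark 29.5% higher and 24.2% lower over all tested genes. All lists were chosen with earlier results of these data known, and the list with an asterisk after its values were seen. HIF targets reach 33 of 34 and cholesterol synthesis 25 of 25 on the right, and mitosis 39 of 40 on the left.

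The interferon and colonocyte lists moved with the block, and few of their members passed in each line. Of 51 interferon response genes, 40 were higher and none lower (median 1.03), but only IFITM2, ISG15, ISG20 and OAS1 were higher in each line. The number higher was 51 in HCT116, 35 in HT29, 14 in LS513 and 4 in LS174T, and the number lower was 0, 2, 1 and 5 in the same order. The list means of the 3D libraries were 2.09 to 2.96 in HCT116 and 0.06 to 0.18 in LS174T. IFITM2, a membrane protein that restricts virus entry, changed by 0.96, 0.53, 1.28 and 0.58 in the 4 lines, and the difference between lines of the list as a whole was not tested. Of 31 colonocyte and goblet genes, 25 were higher and none lower (median 1.10), and KLF4, LGALS4 and KRT20 were higher in each line. Within HT29, LS513, HCT116 and LS174T, 22, 18, 6 and 17 of the 31 were higher and 1, 1, 1 and 2 lower. The list medians were 1.46, 0.88, 0.05 and 0.81 in the same order. KLF4, a factor of postmitotic epithelium, had similar changes in the lines (1.24, 1.22, 1.46 and 1.14). KLF4 read 3.67, 5.51 and 5.81 CPM in 2D and 10.7, 12.04 and 12.3 CPM in 3D in HT29, and 23.1, 23.97 and 24.6 CPM in 2D and 49.0, 57.7 and 59.8 CPM in 3D in LS513. In HCT116, KLF4 read 19.8, 21.3 and 21.9 CPM in 2D and 38.9, 61.5 and 72.9 CPM in 3D, and in LS174T 31.8, 35.9 and 37.2 CPM in 2D and 65.8, 80.4 and 84.7 CPM in 3D. The conditions of KLF4 were apart within each line. LGALS4, an intestinal galectin, and KRT20, a keratin of mature colonocytes, were barely expressed in HCT116 (0.362 and 2.50 CPM in 3D).

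Of 32 lysosome and autophagy genes, 21 were higher and 2 lower (median 0.29), and HEXA, NEU1, PSAP, NPC2, GABARAPL1, MAP1LC3B and BNIP3L were higher in each line. The list means of the 3D libraries lay above those in 2D without overlap in each line, at 0.29 to 0.46 in HT29, 0.31 to 0.49 in LS513, 0.43 to 0.59 in HCT116 and 0.26 to 0.45 in LS174T. GABARAPL1, which coats autophagosomes, changed by 1.08, 1.501, 1.27 and 0.93. Of 30 MAPK feedback and immediate early genes, 17 were higher and 7 lower (median 0.32), and JUN, ATF3 and AREG were higher in each line. AREG, an EGF receptor ligand, changed by 0.99 (standard error 0.08, adjusted p = 3.7e-10), whereas the feedback genes DUSP7 (-0.39), SPRED1 (-0.48) and ETV5 (-0.41) were lower. Of 29 respiratory chain genes, 21 were higher and none lower (median 0.23), with COX5B, a subunit of cytochrome c oxidase, higher in each line at 0.70 (standard error 0.07, adjusted p = 5.5e-08).

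Other lists had 1 member or none that passed in each line. Of 28 NF-kB and inflammatory genes, 15 were higher and 1 lower (median 0.36), with none in each line. As a mean over the NF-kB list, the 3D libraries nevertheless lay above the 2D libraries without overlap in each line, with middle values of 0.32, 0.39, 0.51 and 0.46 in the 4 lines. Of 25 ATF4 and amino acid stress genes, 12 were higher and 4 lower (median 0.16), and ATF3 alone was higher in each line. Of 20 NRF2 targets and metallothioneins, 10 were higher and 2 lower (median 0.19), with MT1F, a metal-binding protein, in each line. Of 32 YAP and SRF targets, 8 were higher and 8 lower (median -0.12), with the myosin light chain MYL6 higher in each line at 0.76 (standard error 0.10, adjusted p = 1.0e-06). In HT29, 4 targets were higher and 20 lower, against 8 and 1 in LS513 and in HCT116 and 7 and 4 in LS174T. Extracellular matrix and adhesion (6 higher and 3 lower of 29), endoplasmic reticulum chaperones (3 and 5 of 18) and Wnt targets and crypt stem genes (5 and 9 of 24) had no member in each line. Of the matrix genes, 14 were lower and 2 higher in HT29, and 17 higher and 1 lower in HCT116. In LS513, 10 were higher and 2 lower, and in LS174T 1 was higher and 6 lower. Of the chaperones, 9 were lower and 1 higher in HT29, and 1 was lower and 1 higher in LS174T. None was lower in LS513 or HCT116, where 2 and 4 were higher. Among the Wnt targets and crypt stem genes, LGR5, a stem cell receptor, fell in LS513 from 13.04 to 2.77 CPM and in LS174T from 32.1 to 17.7 CPM. It did not pass in HT29 (-0.41) and was under the floor in HCT116. AXIN2, a Wnt feedback gene, had fold changes of -0.67, -0.42, -0.57 and -0.09, of which that of LS174T did not pass.

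Families outside the lists were counted whole after their members had been seen among the shared genes, so their counts are a description, as are the single genes named here from them or beside them. Among 14700 tested protein-coding genes, 540 were higher and 459 lower in each line. Nucleoporins, which build the nuclear pore, had 12 of 32 lower in each line and 25 lower with the block (median -0.37). Karyopherins, which carry proteins through it, had 12 of 25 lower in each line and 24 lower with the block (median -0.44). KPNB1, the importin beta of classical import, fell from 764 to 489 CPM in HT29, 486 to 355 CPM in LS513, 907 to 671 CPM in HCT116 and 548 to 397 CPM in LS174T, with changes of -0.64, -0.45, -0.43 and -0.46. Enzymes of purine and pyrimidine synthesis had 8 of 20 lower in each line (CAD, CTPS1, GMPS, MTHFD1, PFAS, PPAT, RRM1 and TYMS), and 4 of 9 chromodomain helicases (CHD1, CHD4, CHD7 and CHD8) were lower in each line. DNMT1, the maintenance DNA methyltransferase, changed by -0.60 (standard error 0.05, adjusted p = 3.0e-10) and FOXM1, the transcription factor of mitotic genes, by -0.59 (standard error 0.07, adjusted p = 2.0e-07). ZNF genes gave 15 of 449 lower in each line and 2 higher, and 167 lower and 59 higher with the block, where all tested protein-coding genes had 3977 lower and 4572 higher with the block.

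On the higher side, 5 of 13 AP-1 and small MAF factors were higher in each line (ATF3, FOSL2, JUN, JUND and MAFF, median 1.21), and 3 of 11 claudins, CLDN3, CLDN4 and CLDN7, which seal tight junctions. With the block, 9 AP-1 and small MAF factors were higher and 1 lower, and 4 claudins were higher and 2 lower (median 0.15). JUND rose from 28.8 to 71.8 CPM in HT29, 49.0 to 118 CPM in LS513, 45.6 to 117 CPM in HCT116 and 37.4 to 124 CPM in LS174T, and its 4 changes were 1.32, 1.27, 1.36 and 1.73. CLDN7 changed by 0.75, 0.74, 1.04 and 0.61 and CLDN4 by 0.71, 1.15, 2.04 and 1.22, with interaction adjusted p-values of 0.14 and 0.00013. EFNA1, an ephrin ligand, changed by 1.42 (standard error 0.10, adjusted p = 2.2e-10) with the block.

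**Figure D4:**
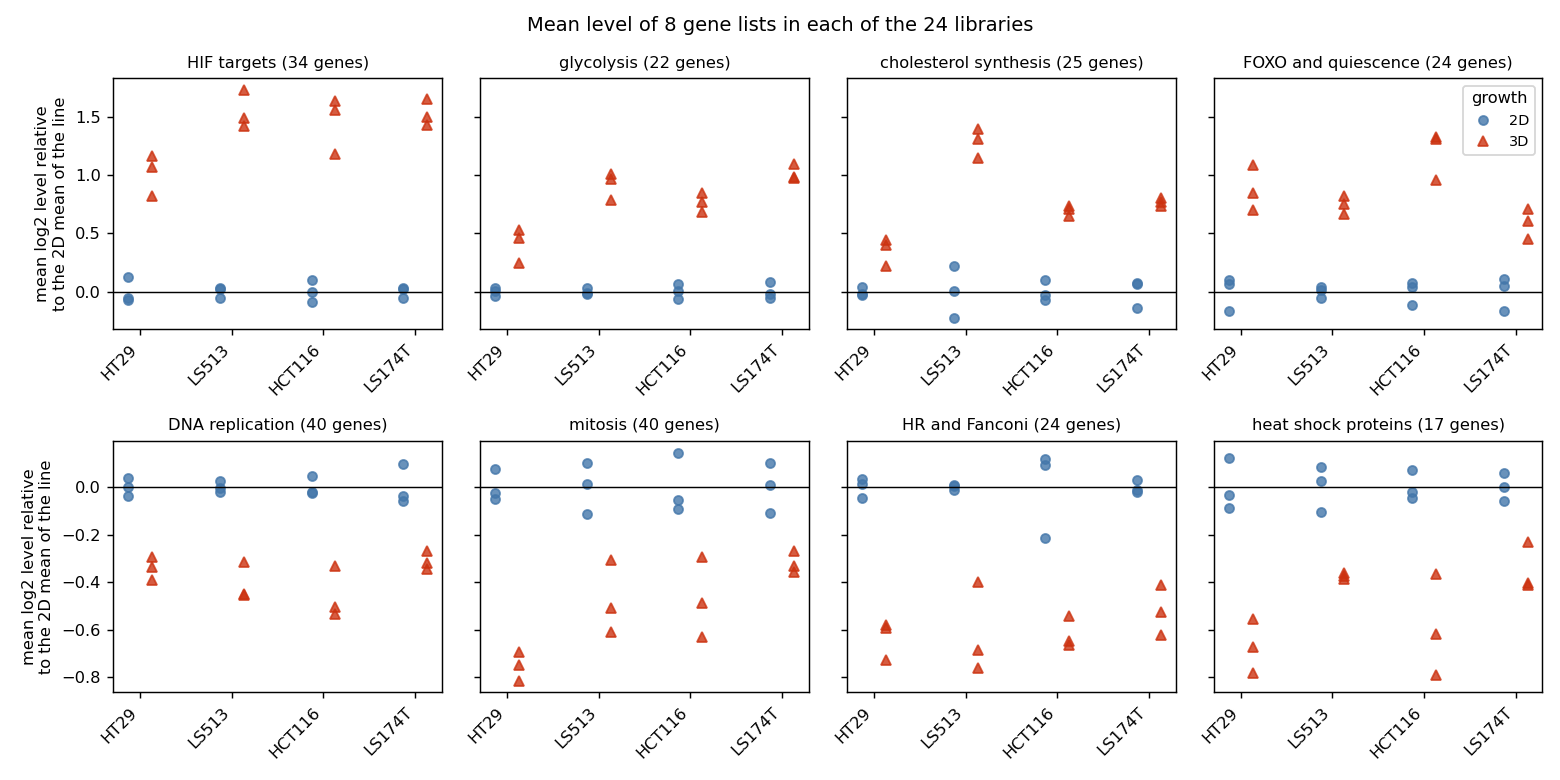
Mean log2 level of 8 gene lists in each of the 24 libraries, relative to the mean of the 2D libraries of the same line, with circles for 2D and triangles for 3D. HR and Fanconi stands for homologous recombination and Fanconi genes. In these panels the 3D libraries of each line lie wholly above (upper row) or below (lower row) its 2D libraries, with HIF targets between 0.82 and 1.74 in 3D.

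Gene length moved with direction. The 608 higher genes had a median exonic length of 3160 bases (GENCODE 29) and 55.8% GC, the 477 lower genes 6851 bases and 43.0% GC, and all tested genes 3972 bases and 49.1% GC. From the shortest to the longest of 5 equal bins of exonic length, the share lower in each line went from 0.129% to 5.61% and the share higher in each line from 3.10% to 1.58%. The level of the longest bin minus that of the shortest, relative to the 2D mean of the line, was -0.47 to -0.25 in the 3D libraries of HT29, -0.29 to -0.00097 in LS513, -0.27 to -0.17 in HCT116 and -0.63 to -0.08 in LS174T (medians over genes, log2). In 2D it lay between -0.04 and 0.12 except for HCT116 replicate 3 (-0.21), which was within the 3D range of its line. LS174T 3D replicate 2 stood farthest out (-0.63), with ribosomal proteins at 11.9% of its counts against 7.03% and 7.85% in the other 3D libraries of LS174T. Without HCT116 2D replicate 3, 668 genes were higher and 570 lower in each line, and without LS174T 3D replicate 2, 509 and 279. Without both libraries, a step added after the data were seen, 583 were higher and 441 lower in each line. The counts in each line were then 19 for HIF targets, 14 for cholesterol synthesis and 62 for ribosomal proteins (higher), and 14 for DNA replication, 12 for mitosis and 14 for homologous recombination and Fanconi genes (lower). HCT116 3D replicate 1 had 6.40% of its counts from mitochondrial genes against 2.45% and 1.66% in its group, and the highest share of counts in its 100 most abundant genes (23.5%). Without it, 544 genes were higher and 389 lower in each line. The part that length and GC have in single results was not tested.

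LS513 3D replicate 3 had no such tilt (-0.00097), and its list means were 1.43 for HIF targets, -0.32 for DNA replication, -0.31 for mitosis and -0.40 for homologous recombination and Fanconi genes. Each of these was the smallest in size of the 3 LS513 3D libraries, the others being 1.49 and 1.74 for HIF targets, -0.45 and -0.45 for DNA replication, -0.51 and -0.61 for mitosis and -0.68 and -0.76 for homologous recombination and Fanconi genes. After each library was corrected for exonic length and GC, a step added after the data were seen, 565 genes were higher and 522 lower in each line, with median lengths of 4541 and 4897 bases. Of the 608 and 477, 422 and 321 were still among them. The corrected counts in each line were 20 for HIF targets, 7 for glycolysis, 13 for cholesterol synthesis and 9 for FOXO genes (higher), and 18 for DNA replication, 18 for mitosis, 14 for homologous recombination and Fanconi genes and 8 for heat shock genes (lower). Ribosomal proteins had 33 higher in each line after the correction. Some lists lost members: glycolysis went from 10 to 7 higher in each line, ribosomal proteins from 38 to 33 and lysosome genes from 7 to 6. Both p53 targets and interferon genes went from 4 to 2, MAPK genes from 3 to 2 and ATF4 genes from 1 to 0. Homologous recombination and Fanconi genes went from 15 to 14 lower in each line. Without both libraries that stood apart, p53 targets and interferon genes also had 2 each. After the correction for length and GC, all leading genes except RSRP1 still passed in each line.

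**Figure D5:**
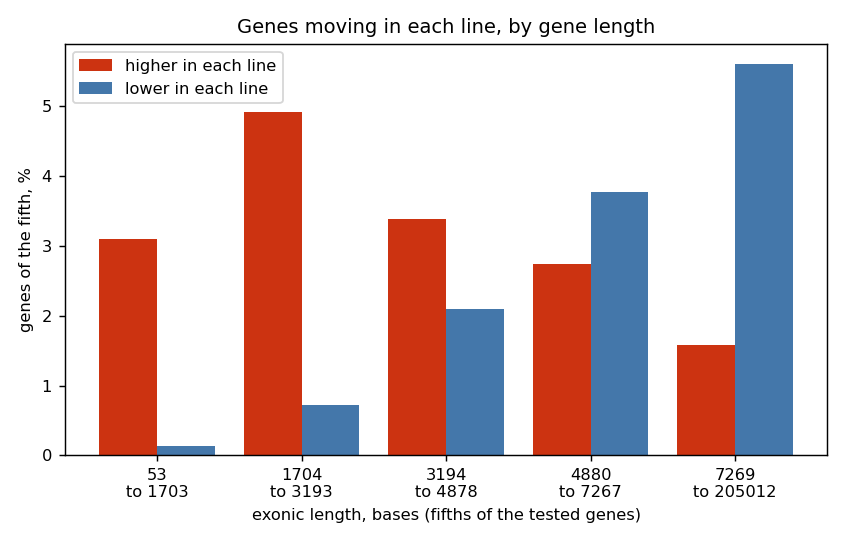
Share of genes higher (red) and lower (blue) in each of the 4 lines, in percent, in 5 equal bins of exonic length (bases). The share of lower genes goes from 0.129% in the shortest bin to 5.61% in the longest.

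Genes that moved in different directions mark what the lines do not share. Across the 19387 tested genes, the fold changes of pairs of lines correlated at Pearson's r between 0.258 and 0.389, a description over genes, which are not independent. Among the 36 genes that passed in each line with mixed directions, the 3 with the smallest interaction p were SLC5A1, FAM13A and PPL. SLC5A1, the intestinal sodium and glucose transporter, was higher in HT29 and HCT116 and lower in LS513 and LS174T. SLC5A1 read 5.37, 6.57 and 7.82 CPM in 2D and 21.4, 30.5 and 33.4 CPM in 3D in HT29, and 36.9, 43.8 and 50.5 CPM in 2D and 15.5, 17.1 and 21.1 CPM in 3D in LS513. In HCT116, SLC5A1 read 3.26, 3.59 and 3.74 CPM in 2D and 6.18, 7.09 and 8.08 CPM in 3D, and in LS174T 14.7, 15.9 and 18.2 CPM in 2D and 3.43, 3.87 and 4.35 CPM in 3D. FAM13A changed by 0.75, 2.05, -0.44 and 1.60 and PPL, the desmosomal periplakin, by -0.89, 0.56, 0.69 and -0.37 in HT29, LS513, HCT116 and LS174T.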

How the data were processed

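Poly(A) RNA of 24 libraries (4 CRC cell lines, 2D and 3D, 3 per group) was sequenced as single reads in up to 8 technical replicates each. The authors deposited raw counts per Ensembl gene for every technical replicate, made with Trim Galore 0.4.1, STAR with multi-mapped reads removed and HTSeq-count 0.5.3. The submitters' processing notes name hg19, while the methods name Ensembl 91, whose genes lie on GRCh38. Positions, symbols and exonic lengths here come from GENCODE 29 on GRCh38, which held 57980 of the 58243 gene IDs. The 191 files were summed per library, and 1 technical replicate of HT29 3D replicate 4 was not analysed here.

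Genes were filtered with filterByExpr over the 8 groups and scaled by TMM in edgeR 4.0.16 (R 4.3.3). Growth was tested by the robust quasi-likelihood test with line as a block, in each line in a fit of 8 groups, and between lines by the interaction, each adjusted by Benjamini-Hochberg over all tested genes at 0.05. Fold changes are those of the fit with edgeR's default prior count, list means use log2 CPM with a prior count of 2, and standard errors were derived from the F value. CPM values use TMM-scaled library totals, and the floor of a library was set at 3 counts, which covers counting error only. Alternatives used DESeq2 1.42.0 and limma 3.58.1, and the steps were tested on simulated data.

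The leading genes were the 15 higher and 15 lower protein-coding genes with the largest value of their smallest absolute change over the 4 lines, among genes that passed in each line with the same sign, reached 1 CPM in the higher condition of each line and did not overlap between conditions within a line. Also named were up to 3 members per list and direction with the smallest p, the 3 genes of mixed direction with the smallest interaction p, and MKI67, CDKN1A and MYC. Members and lists were chosen with earlier results of these data known.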

Additional observations from a re-analysis of the deposited data

Results flagged for a closer look

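Growth effects differed between the 4 lines for 3 of the leading higher genes, by the interaction test of growth and line over all tested genes (edgeR quasi-likelihood test, Benjamini-Hochberg adjusted). NDRG1 (adjusted p = 0.0346) rose on the log2 scale by 4.34 in HT29 and 3.29 in LS513, and by 4.36 in HCT116 and 4.23 in LS174T. ANKRD37 (adjusted p = 0.00559) rose by 2.95, 2.45, 4.47 and 3.95 in the same order. CA9 (adjusted p = 0.0105) rose by 1.90, 4.00, 3.62 and 3.51.

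The same test picked out 3 genes that passed in each line with different directions. SLC5A1 (adjusted p = 7.0e-10) changed by 2.11, -1.29, 1.01 and -2.06 in HT29, LS513, HCT116 and LS174T. FAM13A (adjusted p = 2.6e-09) changed by 0.75, 2.05, -0.44 and 1.60, and PPL (adjusted p = 4.4e-08) by -0.89, 0.56, 0.69 and -0.37. Groups of 3 libraries are too small for a test of single outlying libraries.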

How the results depend on the processing

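The 30 leading genes kept their direction in all 1110 values over 37 alternatives, at 0.690 to 1.21 times the reported change, and 1080 values stayed past the threshold. These genes were chosen from the same libraries for large changes of 1 sign in each line, which favors this outcome. The values are thus a description and no independent check. The other 30 are those of the fit with lines as replicates (limma), where 0 genes were higher and 0 lower and the adjusted p of the leading genes lay between 0.0584 and 0.0703. With a log2 change of at least 1, the counts were 1304 higher and 243 lower with line as a block, and 87 and 4 in each line. Each line fitted alone gave 308 higher and 192 lower. Without LS174T, 1084 genes were higher and 1020 lower in each of the other 3 lines. Among the 1085 genes shared by all 4 lines, the interaction called 87 without HT29 and 111 without LS513, against 175 with all lines.

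The labels do not say whether replicate numbers pair the libraries. The 11 same-numbered pairs correlated at -0.146 to 0.0938 in their deviations and libraries with other numbers at -0.229 to 0.221. With 3 libraries per group, these values cannot show whether libraries with the same number were grown together. With the replicate number within each line as a block, 375 genes were higher and 284 lower in each line. The interaction then called 83 of the shared genes, and the test over all lines gave 4684 higher and 4017 lower. HT29 2D replicate 2 and HT29 3D replicate 4 had no partner of the same number in these fits. Leaving out 1 library at a time gave 5386 to 5802 higher and 4461 to 4775 lower genes with line as a block, 415 to 748 and 279 to 657 in each line, and 139 to 269 interaction calls. The count lower in each line was 312 without LS513 3D replicate 1, 291 without LS513 3D replicate 2, 313 without LS174T 2D replicate 2, 306 without LS174T 2D replicate 3 and 279 without LS174T 3D replicate 2, which also gave the 269. Without both that library and HCT116 2D replicate 3 (chosen after seeing the data), the interaction called 333. The cause was not tested. DESeq2, its size factors, a looser count filter, the average over the 8 groups, the removal of technical replicate d and the correction for length and GC (chosen after seeing the data) moved none of the counts over all tested genes by over 1.5 times. Depth limits genes near the floor of 0.0875 to 0.160 CPM.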
